A study of Drosophila melanogaster with 12 samples.

Results

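Seminal fluid genes of Drosophila melanogaster that carry the symbol Sfp (seminal fluid protein) or Acp (accessory gland protein) followed by a number were followed in male reproductive tracts. The set took every gene with such a symbol except the cuticle genes Acp1 and Acp65Aa, the Acp53 genes, and Acp24A4, Acp26Aa, Acp26Ab, Acp29AB, Acp36DE, Acp62F, Acp76A, Sfp24Ba, Sfp24Bb, Sfp60F, Sfp79B and Sfp87B. It held 29 genes, 23 Sfp and 6 Acp, of 17559 in the count tables. The study, on sexual selection and accessory gland expression in maturing males, used 6 laboratory populations founded from the IV base population and kept for 168 generations. In the 3 polygamous populations 5 males and 5 females mated as a group, and in the 3 monogamous populations 1 male was kept with 1 virgin female. Virgin males of each population were dissected at 96 and at 48 h of age, and 30 tracts with accessory glands, testes and ejaculatory duct were pooled for a library. The 4 groups of 3 libraries are therefore polygamous at 96 h, polygamous at 48 h, monogamous at 96 h and monogamous at 48 h. Each library is 1 pool of 1 evolved population, numbered as in the labels. The spread within a group therefore holds differences between populations, pools and libraries, which cannot be told apart.

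Seminal fluid proteins are made mainly by the secretory cells of the accessory glands, with smaller contributions from the ejaculatory duct and bulb, and pass to the female at mating. In the fly they are known to alter egg laying, sperm storage and the readiness of females to mate again. Many are short, fast-evolving secreted peptides, and most genes of this set are named for the chromosome band in which they lie rather than for a known function. The main cells make up nearly all of the gland epithelium and produce most of these proteins, while the rarer secondary cells add a distinct group. Acp95EF is a long-known main cell gene whose promoter has been used to direct transgenes to those cells.

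The 29 genes were small. Their coding regions spanned 75 to 756 bases, or 25 to 252 codons, and 10 genes had a single block of exon sequence. By the Ensembl BDGP6.54 annotation, 16 lay on chromosome arm 2L, 3 on 2R, 5 on 3L, 5 on 3R and 0 on the X. A pair of tight neighbour groups stood on 2L: Sfp24Bd and Sfp24Bc with start sites 1447 bases apart, and Sfp33A4, Sfp33A2 and Sfp33A3 with start sites 470 and 2199 bases apart. 12 genes lay across a gene of the other strand, but exon sequence was shared by 3 only. Acp95EF shared all of its 243 exon bases with Spase22-23, which encodes a subunit of the signal peptidase, Sfp78E shared 134 bases with CG11248 and 24 with lncRNA:CR43978, and Sfp84E shared 27 bases with Os-C. The library kit kept strand. Whether the counting used it is not given in the sources used here. Reads of these 3 genes and of their partners can therefore not be told apart with certainty.

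Each library held 31367030 to 40581251 gene counts, so that 3 counts were worth 0.0739 to 0.0956 CPM (reads of a gene as a proportion of the TMM-scaled library size, in the usual CPM unit). Of the 29 genes, 27 passed the filter on low counts and were tested. Markers of the testis germline were abundant in every library (56 of 59 listed genes matched, 44678 to 62730 CPM in sum). The tissue label gives the male reproductive tract, whereas the source label names the accessory gland alone. In bulk tracts, fewer cells of a type and less RNA per cell cannot be told apart.

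Nearly every comparison of the set was touched by 1 library, that of monogamous population 1 at 48 h, in which most members were far below their level elsewhere. Of the 27 tested members, 25 lay below all of the other 5 libraries at 48 h and 2 above, whereas 34.7% of all tested genes lay below and 35.5% above. The median member stood at 0.413 times the median of the other 5 libraries. Acp32CD was lowest against the rest, with 96.3 CPM in this library and 397 to 626 CPM in the other 5, a 5.51-fold difference from their median. The members above all others were Sfp93F, with 183 CPM here and 129 to 179 CPM elsewhere at 48 h, and Acp54A1, with 1832 CPM here and 958 to 1541 CPM elsewhere. The ratio to the other libraries went with coding length, with a Spearman correlation of −0.87 over the 27 members: the 2 members above were short, and the longest member was the lowest. The same correlation over 11416 tested coding genes was −0.31. All members share the libraries and their depth, and the values are a description.

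**Figure D1:**
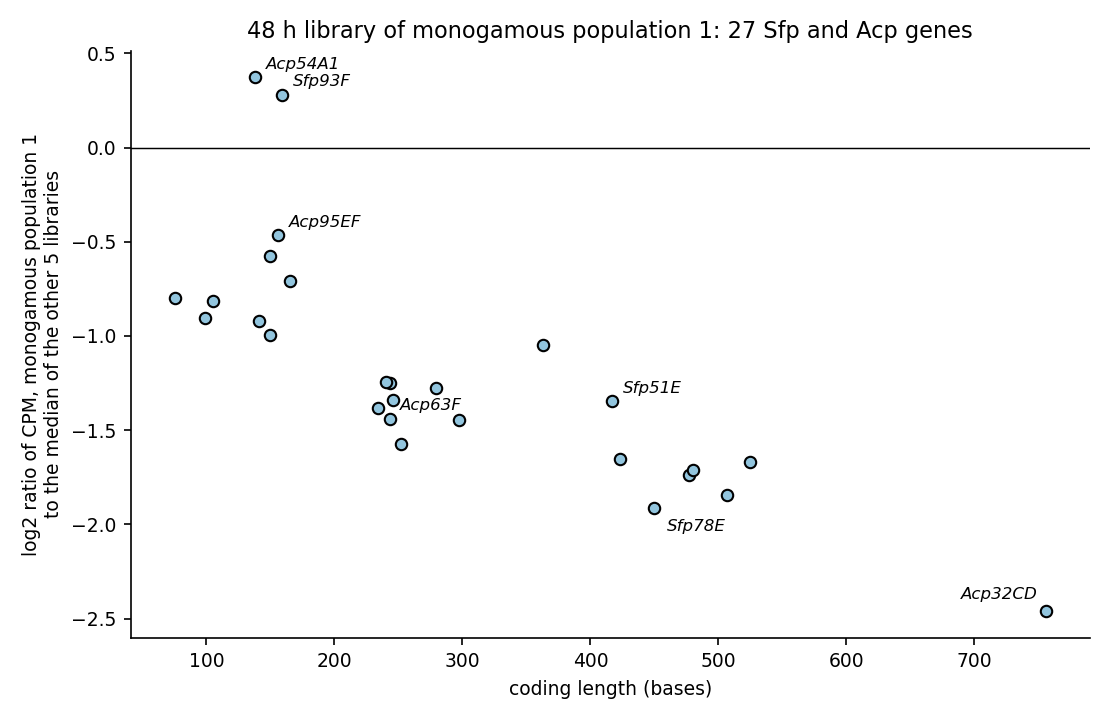
Log2 ratio of CPM in the 48 h library of monogamous population 1 to the median of the other 5 libraries at 48 h (vertical axis), against coding length in bases (horizontal axis), 1 point per tested Sfp or Acp gene. Of the 27 points, 25 lie below 0, and Acp32CD, with the longest coding region of 756 bases, is the lowest at −2.46.

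In that library, 10 matched markers of secondary cells summed to 2995 CPM, against 5946 to 8994 CPM in the other 11 libraries. Testis germline markers summed to 62730 CPM against 44678 to 51431 CPM, and 19 matched markers of haemocytes and fat body to 609 CPM against 195 to 335 CPM. Muscle markers (15 matched) summed to 1726 CPM, below the 2043 to 2523 CPM of the other 11 libraries, while the 7 matched duct and bulb markers summed to 4941 CPM, within the 2878 to 6624 CPM of the others. Seminal fluid genes outside the set (49 genes, which share 3 with the secondary cell list and 4 with the list for duct and bulb) summed to 22966 CPM against 34551 to 61542 CPM. Their part in the results on the set was not tested. Results below are therefore given with all 12 libraries and, where they differ, without both libraries of this population.

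Levels spanned more than 4 orders of magnitude between members. Per kilobase of exon, Acp95EF was the most abundant member, with a mean of 8979 CPM per kb over the 12 libraries, and ranked 3 among 17253 annotated genes. Acp54A1 followed at 4056 CPM per kb (rank 9), Acp33A at 2386 (rank 31), Acp98AB at 1794 and Acp63F at 1392 CPM per kb. Acp95EF exceeded Acp54A1 and Acp54A1 exceeded Acp33A in 12 of 12 libraries, whereas Acp33A exceeded Acp98AB in 11. In the middle of the order neighbours were not separated: Sfp26Ad (589 CPM per kb) exceeded Acp32CD (570) in 6 of 12 libraries, and Sfp65A (407) exceeded Sfp35C (399) in 6. In this order per kilobase the Acp genes filled the first 5 places, and Acp32CD came eighth. The order depended on the division by length. In mean CPM, Acp98AB (314) lay below Acp32CD (505), Sfp33A3 (378) and Sfp26Ad (361). The lowest of the tested members were Sfp38D at 45.7 and Sfp33A2 at 30.4 CPM per kb.

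**Figure D2:**
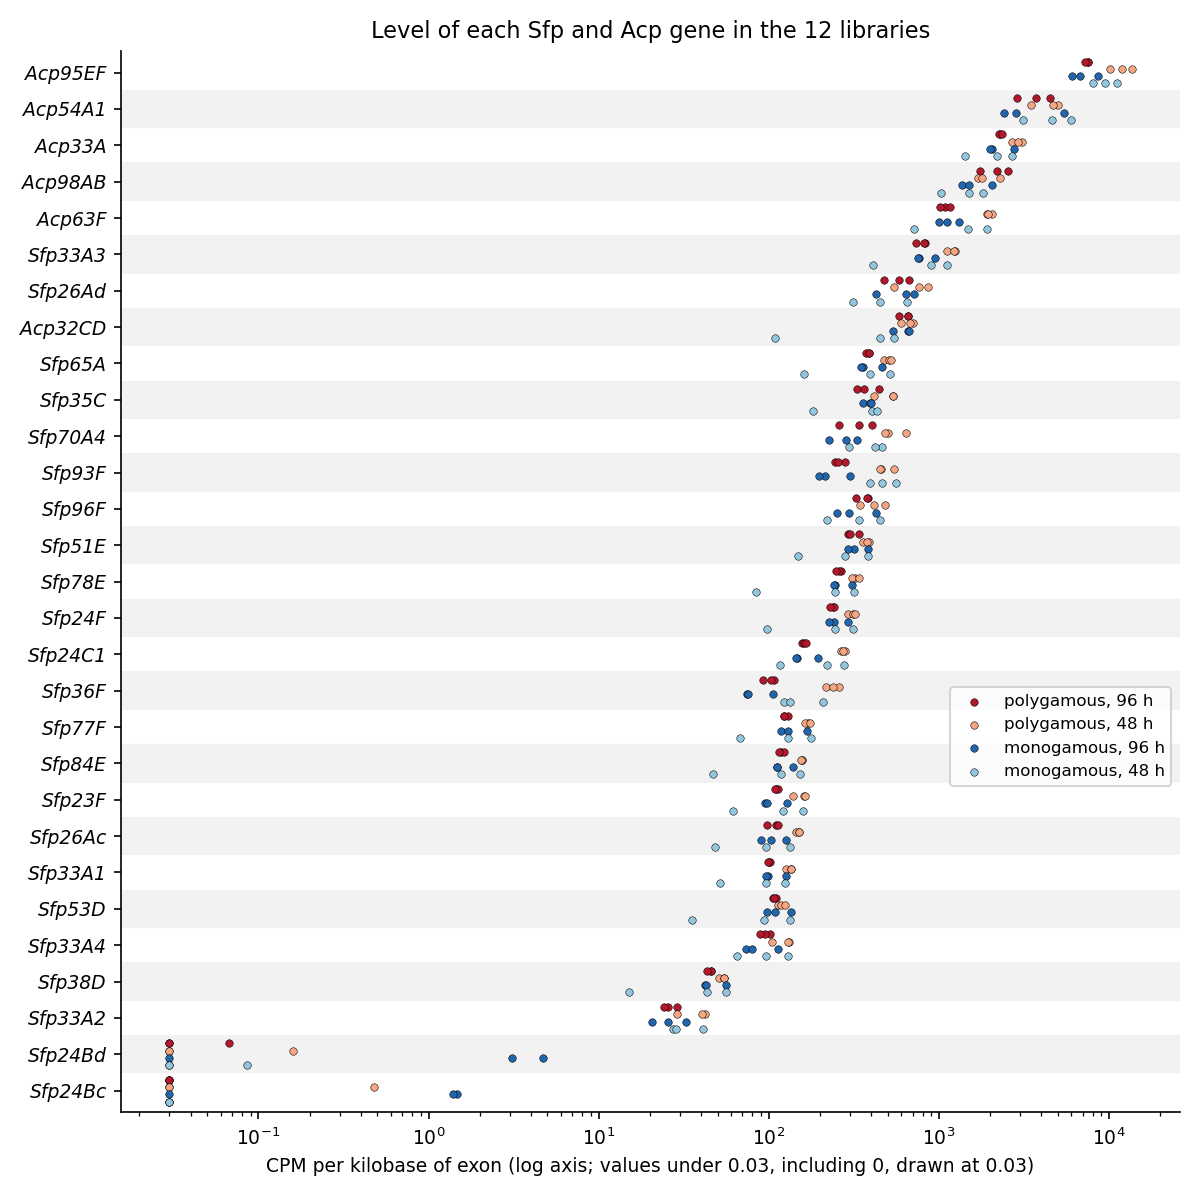
CPM per kilobase of exon of the 29 Sfp and Acp genes (horizontal log axis) in the 12 libraries, 1 point per library, coloured by regime and age and ordered by mean level. Acp95EF leads at a mean of 8979 CPM per kb, 27 genes have means of 30.4 or more, and Sfp24Bd and Sfp24Bc lie far below the rest, with values under 0.03, zeros among them, drawn at 0.03.

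Acp54A1 had 1369, 883 and 1138 CPM in polygamous populations 1 to 3 at 96 h, against 1541, 1068 and 1424 CPM at 48 h. In monogamous populations 1 to 3 it had 864, 740 and 1663 CPM at 96 h, against 1832, 958 and 1416 CPM at 48 h. The ages overlapped in both regimes, and among the monogamous libraries population 3 was highest at 96 h and population 1 at 48 h. Acp33A had 781, 762 and 792 CPM in the polygamous populations at 96 h, against 911, 1043 and 994 CPM at 48 h. In the monogamous populations Acp33A had 694, 680 and 942 CPM at 96 h, against 481, 744 and 912 CPM at 48 h. Its ages were separate in polygamous males and overlapped in monogamous males.

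Together the members took 0.598% to 1.03% of the gene counts of a library. The share was 0.771% ± 0.0324 in polygamous males at 96 h (SD, n = 3) and 0.993% ± 0.0445 at 48 h. In monogamous males it was 0.744% ± 0.146 at 96 h and 0.767% ± 0.172 at 48 h, or 0.852% at 48 h without population 1. The lowest polygamous share at 48 h, 0.943%, lay above the highest at 96 h, 0.807%, while the monogamous ages overlapped. Acp95EF, Acp54A1 and Acp33A held 46.3% to 69.2% of the set's counts, with the highest share in the 48 h library of monogamous population 1. Without these 3 genes the set took 0.389% ± 0.0188 in polygamous males at 96 h, against 0.485% ± 0.0205 at 48 h. In monogamous males the same share was 0.379% ± 0.0524 at 96 h, against 0.335% ± 0.138 at 48 h, or 0.411% at 48 h without population 1.

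With age, averaged over regimes, 3 of the 27 tested members fell and 0 rose. They were Sfp36F, Sfp93F and Acp95EF. In the same comparison 1.47% of the 13156 tested genes were called, 0.646% as lower and 0.829% as higher at 96 h. DESeq2 called 6 members, all as lower, and 4.41% of all genes. The call was a Benjamini-Hochberg adjusted p under 0.05 in the quasi-likelihood test of edgeR. The members' median log2 change was −0.13, with 21 of 27 below 0, against a median of 0.01 and 47.6% below 0 over all tested genes. The changes ran from −1.05 for Sfp36F to 0.35 ± 0.30 (SE) for Acp32CD.

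Sfp36F (FBgn0261057, 2L, 18292522 to 18292833 in BDGP6.54, as for all positions given), a gene of 35 codons, had 27.2, 26.2 and 23.5 CPM in polygamous populations 1 to 3 at 96 h, against 55.1, 65.2 and 60.5 CPM at 48 h. In monogamous populations 1 to 3 it had 18.8, 19.0 and 26.9 CPM at 96 h, against 31.4, 34.0 and 52.9 CPM at 48 h. Every 96 h library lay below every 48 h library, and the gene was lower at 96 h in 6 of 6 populations. It fell 2.07-fold with age (log2 change −1.05 ± 0.14, SE, 6 libraries against 6, edgeR adjusted p 0.00538).

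Sfp93F (FBgn0261060, 3R, 21735909 to 21736296) had 91.9, 80.4 and 83.7 CPM in polygamous populations 1 to 3 at 96 h, against 179, 151 and 148 CPM at 48 h. In monogamous populations it had 70.4, 65.0 and 98.5 CPM at 96 h, against 183, 129 and 152 CPM at 48 h. Again the 6 libraries at 96 h lay below the 6 at 48 h. Sfp93F fell 1.92-fold (−0.94 ± 0.12, edgeR adjusted p 0.00393). These were the only 2 members whose ages did not overlap over all 12 libraries, a separation that 1.36% of all tested genes showed towards lower and 1.65% towards higher values.

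Acp95EF (FBgn0002863, 3R, 24228975 to 24229279), the most abundant member, had 1817, 1823 and 1742 CPM in polygamous populations 1 to 3 at 96 h, against 2454, 3292 and 2896 CPM at 48 h. In monogamous populations it had 1474, 1636 and 2088 CPM at 96 h, against 1963, 2290 and 2708 CPM at 48 h. It was lower at 96 h in 6 of 6 populations, although the 96 h library of monogamous population 3 lay above the 48 h library of monogamous population 1. Acp95EF fell 1.47-fold (−0.55 ± 0.11, edgeR adjusted p 0.0328). The call was lost when any of 9 libraries was left out (edgeR adjusted p 0.0504 to 0.108), and held without the 48 h library of monogamous population 1, the 96 h library of monogamous population 3 or the 48 h library of polygamous population 1. It was also lost without the filter on low counts (edgeR adjusted p 0.0509) and with size factors from testis genes (edgeR adjusted p 0.112). These fits did not use the population as a block. In the fit with that block and all libraries Acp95EF was called lower, at −0.55 ± 0.05 (edgeR adjusted p 0.00354).

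With the population as a block, 4 members fell by the edgeR test, where 1.88% of all genes were called lower. The added gene was Sfp70A4, at −0.59 ± 0.09 (edgeR adjusted p 0.0162). Without monogamous population 1 the count was 7, with Acp63F, Sfp24C1, Sfp33A3 and Sfp70A4 added, and 3.55% of all genes were called lower. Leaving out the 48 h library of that population alone also added these 4 genes, with edgeR adjusted p-values of 0.00127 to 0.0240. With both changes 21 members fell and 1 rose, where 11.1% of all genes were called lower and 10.8% higher. The rise was that of Acp32CD, at 0.11 ± 0.02 (edgeR adjusted p 0.00799), and Sfp70A4 was not called there (edgeR adjusted p 0.0640).

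**Figure D3:**
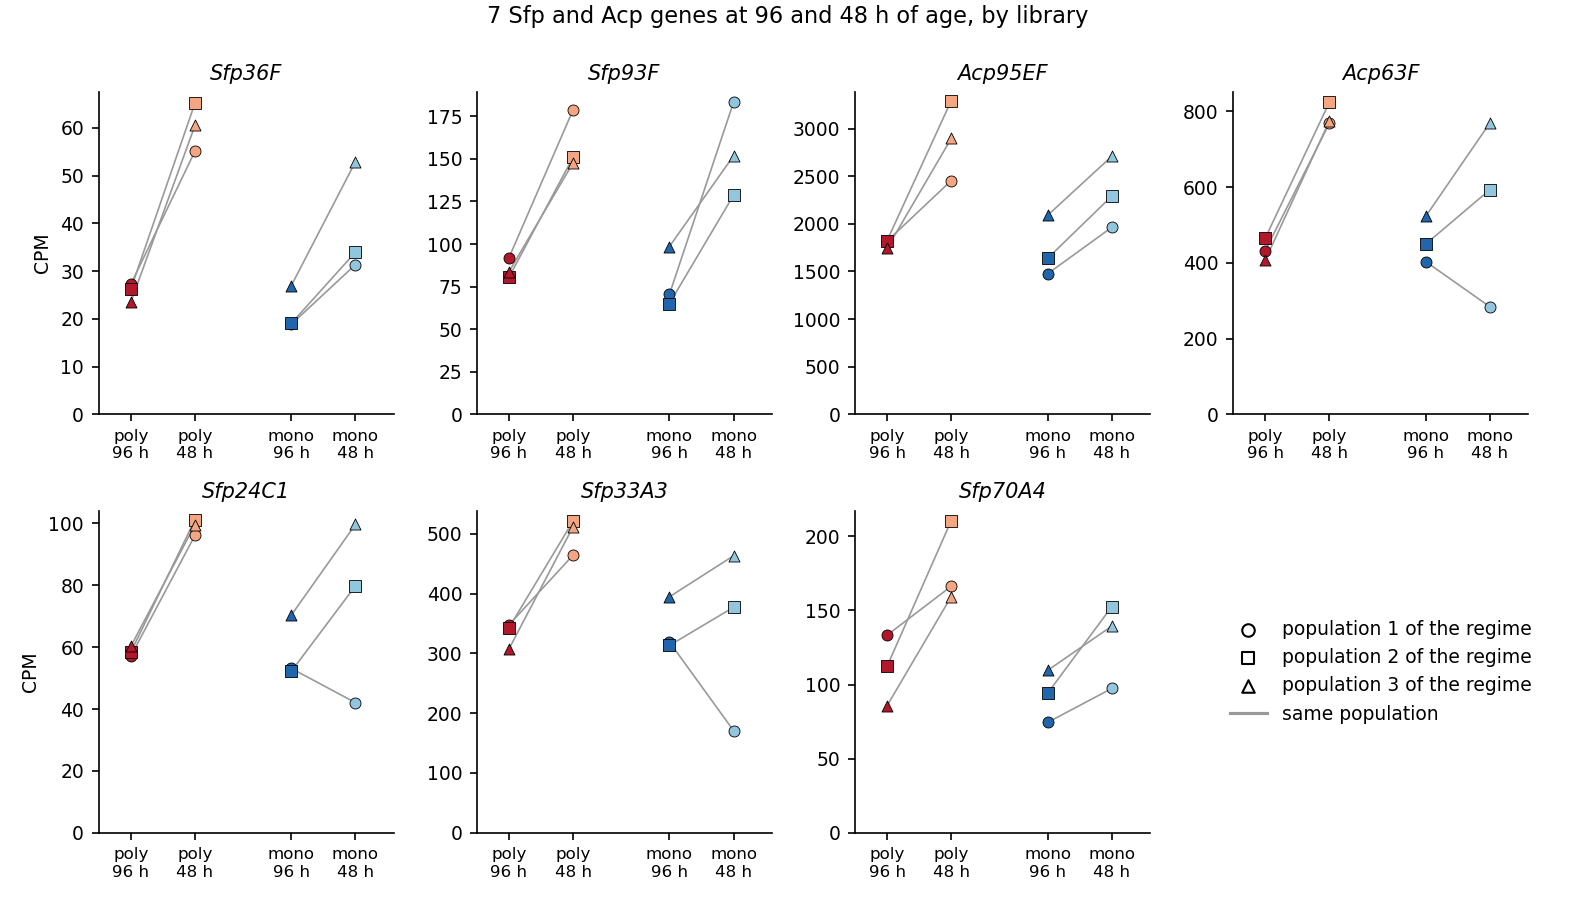
CPM of 7 Sfp and Acp genes called lower at 96 h with all 12 libraries or without monogamous population 1, by regime and age; each symbol is 1 library and lines join the libraries of a population. In Sfp36F and Sfp93F every library at 96 h lies below every library at 48 h, while in Acp63F, Sfp24C1 and Sfp33A3 only the line of monogamous population 1 runs the other way.

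In the 4 genes added without that population the polygamous ages did not overlap. For Acp63F, Sfp24C1 and Sfp70A4 the ages of monogamous populations 2 and 3 were separate too, as 17.8% of all genes were towards lower values. Over both regimes without population 1, 6 members were separate towards lower values at 96 h, against 3.75% of all genes. Acp63F (FBgn0015585, 3L, 3815839 to 3816354) had 432, 465 and 407 CPM in polygamous populations 1 to 3 at 96 h, against 769, 824 and 775 CPM at 48 h. In monogamous populations it had 403, 450 and 523 CPM at 96 h, against 284, 593 and 770 CPM at 48 h. Without population 1 it fell 1.60-fold (−0.67 ± 0.08, edgeR adjusted p 0.00229), while with all libraries the change was −0.56 ± 0.19 (edgeR adjusted p 0.194).

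Sfp24C1 (FBgn0259956, 2L, 3700674 to 3701092) had 57.0, 58.3 and 60.2 CPM in the polygamous populations at 96 h, against 96.1, 101 and 99.6 CPM at 48 h. In the monogamous populations it had 53.1, 52.2 and 70.3 CPM at 96 h, against 42.1, 79.8 and 99.7 CPM at 48 h. The 3 polygamous libraries of an age were nearly alike, and only monogamous population 1 was higher at 96 h. Without it the fall was 1.57-fold (−0.65 ± 0.09, edgeR adjusted p 0.00434).

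Sfp70A4 (FBgn0259970, 3L, 13296530 to 13296860) had 133, 112 and 85.7 CPM in the polygamous populations at 96 h, against 166, 211 and 159 CPM at 48 h. In the monogamous populations it had 74.4, 94.1 and 110 CPM at 96 h, against 97.3, 152 and 139 CPM at 48 h. All 6 populations were lower at 96 h, and the change was −0.59 ± 0.15 with all libraries (edgeR adjusted p 0.0889) and −0.61 ± 0.13 without population 1 (edgeR adjusted p 0.0389).

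The 3 neighbours at band 33A were read from 1 strand but did not share a level. Sfp33A3 (FBgn0259964, 2L, 11839912 to 11840329) had 348, 343 and 307 CPM in the polygamous populations at 96 h, against 464, 521 and 512 CPM at 48 h. In the monogamous populations it had 319, 313 and 395 CPM at 96 h, against 171, 377 and 463 CPM at 48 h. The polygamous ages were separate and the monogamous ages overlapped, and without population 1 Sfp33A3 fell by 0.42 ± 0.08 on the log2 scale (edgeR adjusted p 0.0235). Sfp33A4 had 24.7, 23.1 and 21.7 CPM in the polygamous populations at 96 h, against 25.4, 31.9 and 31.5 CPM at 48 h. Its monogamous values were 18.0, 19.4 and 27.5 CPM at 96 h, against 15.8, 23.5 and 31.7 CPM at 48 h. The polygamous ages of Sfp33A4 were separate, and its monogamous ages overlapped. Sfp33A2 had 8.55, 8.20 and 9.66 CPM in the polygamous populations at 96 h, against 9.76, 14.2 and 13.7 CPM at 48 h. Its monogamous values were 8.57, 6.90 and 10.9 CPM at 96 h, against 9.17, 9.59 and 13.8 CPM at 48 h. The same held for Sfp33A2, the lowest of the 3. Neither passed the test with all libraries, at −0.24 ± 0.16 for Sfp33A4 and −0.41 ± 0.15 for Sfp33A2. With the population as a block and without monogamous population 1 both were called lower, at −0.29 ± 0.07 for Sfp33A4 (edgeR adjusted p 0.0239) and −0.45 ± 0.08 for Sfp33A2 (edgeR adjusted p 0.00268). Per kilobase, Sfp33A3 averaged 904 CPM, Sfp33A4 100.5 and Sfp33A2 30.4 over the 12 libraries.

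Within polygamous males most estimates of the age change were below 0, but no member passed the test with all 12 libraries and no block. The members' median log2 change was −0.39 with 26 of 27 below 0, against 0.01 over all genes, and the range was −1.23 for Sfp36F to 0.17 for Acp98AB. In 21 of 27 members all 3 libraries at 96 h lay below all 3 at 48 h, a separation that 12.2% of all genes showed, and 0 members were separate in the other direction, as 11.8% of all genes were. The test of edgeR called 0 members, with 7 at an unadjusted p under 0.05, and 0.0988% of all genes, 0.0684% as lower and 0.0304% as higher. DESeq2 called 3 members and 0.847% of all genes. The nearest was Sfp36F, at −1.23 ± 0.20 with an edgeR adjusted p of 0.0522. The block called 3 members as lower (0.327% of all genes), Sfp36F, Sfp93F and Acp95EF, and the fit without monogamous population 1 called 6 (2.13%). The polygamous libraries were the same in that fit, and the SE of Sfp36F was 0.18 in place of 0.20. The count was likewise 6 without the 48 h library of monogamous population 1 alone, where 2.15% of all genes were called lower. It was 1 (Sfp36F) without that of monogamous population 3, where 0.106% of all genes were called lower. With the block and without monogamous population 1, 22 members fell, where 8.56% of all genes were called lower.

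Within monogamous males the members were divided. The median was 0.12 with 11 of 27 below 0, and −0.10 with 20 of 27 below 0 when population 1 was left out. Sfp93F alone fell (−0.99 ± 0.17, edgeR adjusted p 0.0360), where 0.547% of all genes were called, 0.152% as lower and 0.395% as higher. DESeq2 called 2 members and 2.36% of all genes. The call of Sfp93F was lost without population 1 (−0.78 ± 0.19, edgeR adjusted p 0.150), when 0 members were called by edgeR, 6 had an unadjusted p under 0.05 and 0.692% of all genes were called. It was also lost with size factors from testis genes (edgeR adjusted p 0.0880) and when any of the same 9 libraries as for Acp95EF was left out (edgeR adjusted p 0.0539 to 0.155). With the block 3 members fell, Sfp36F, Sfp93F and Acp95EF, where 0.806% of all genes were called lower. With the block and without population 1, 6 fell and Acp32CD rose (0.27 ± 0.04, edgeR adjusted p 0.000850), where 3.94% of all genes were called lower and 3.86% higher. Sfp36F and Sfp93F were the 2 members whose monogamous ages did not overlap, a separation shown by 7.72% of all genes towards lower and by 9.22% towards higher values. Without population 1, with 2 libraries against 2, 7 members were separate towards lower values (Acp63F, Acp95EF, Sfp24C1, Sfp35C, Sfp36F, Sfp70A4 and Sfp93F), against 17.8% of all genes.

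**Figure D4:**
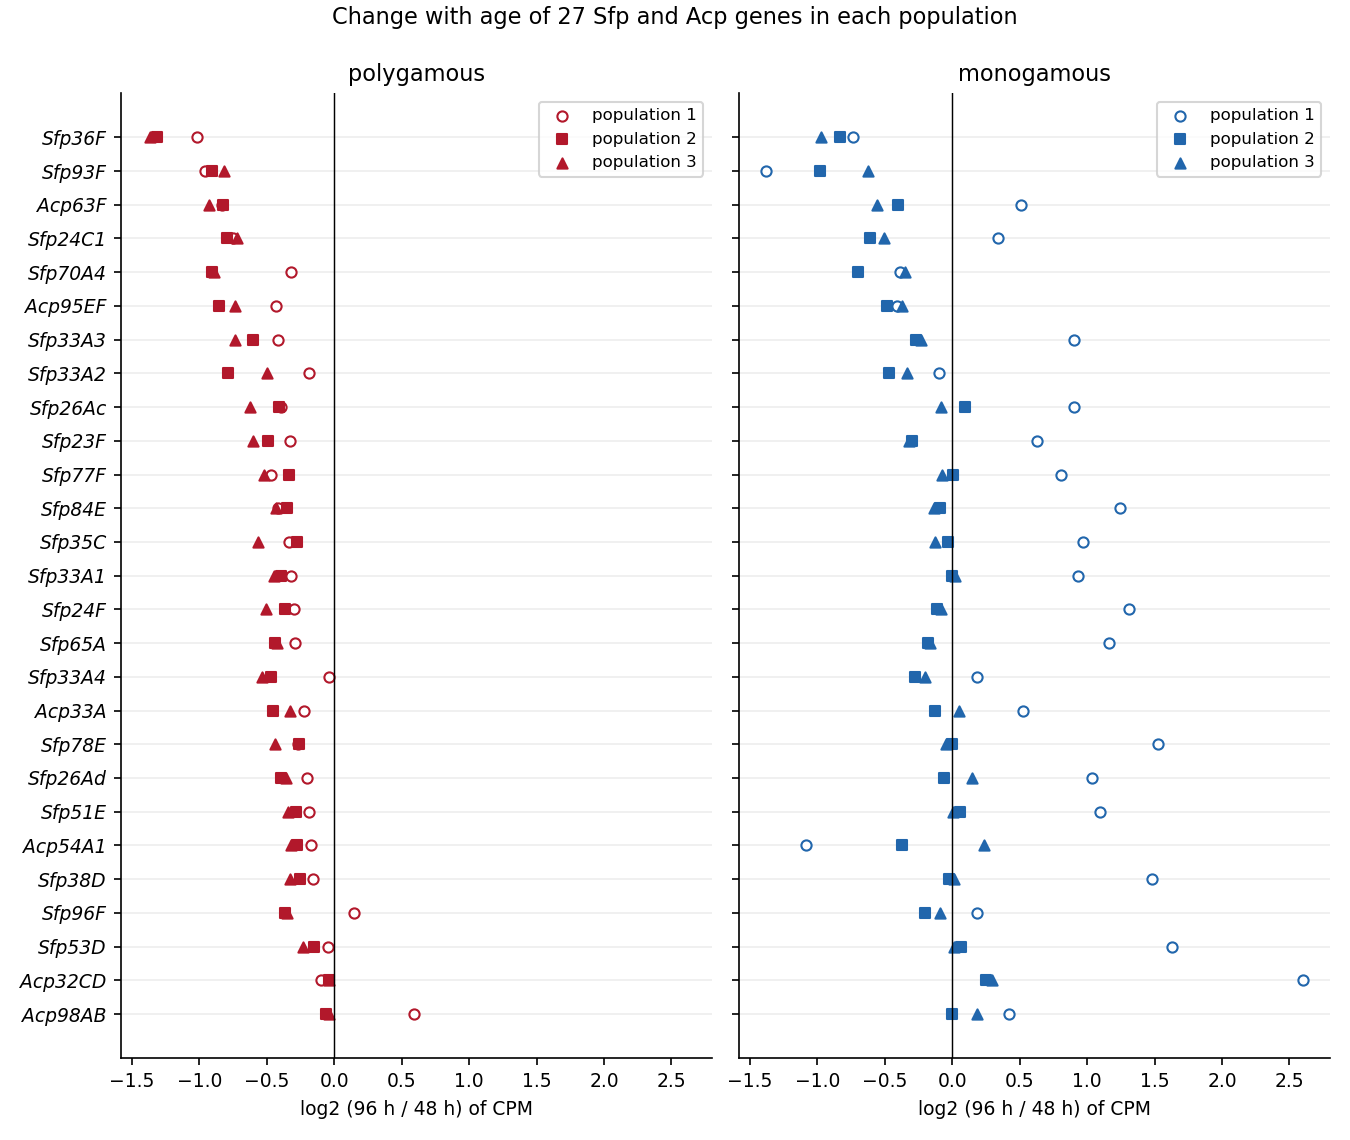
Log2 ratio of CPM at 96 h to CPM at 48 h (horizontal axis) of 27 Sfp and Acp genes in each polygamous population (left) and each monogamous population (right), 1 symbol per population. The polygamous medians are −0.30, −0.40 and −0.50 for populations 1 to 3, and the monogamous medians are 0.80, −0.13 and −0.09, with open circles of monogamous population 1 mostly right of 0.

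By population, 25, 27 and 27 of 27 members were lower at 96 h in polygamous populations 1 to 3, and 6, 22 and 18 in monogamous populations 1 to 3. Between 47.4% and 49.7% of all genes were lower at 96 h in any population. The difference between the regimes in the age change had a median of −0.53 over the members, polygamous minus monogamous, and of −0.28 without monogamous population 1, against 0.01 over all genes. The range was −0.82 for Acp32CD to 0.11 for Acp54A1, and the value for Acp54A1 was −0.02 with size factors from testis genes. In 3 members (Acp32CD, Sfp51E and Sfp53D) all 3 polygamous populations were lower and all 3 monogamous populations higher at 96 h, while 2.83% of all genes moved oppositely in the regimes, in either direction. The test of the difference called 0 members with edgeR, with 0 at an unadjusted p under 0.05, and 0% of all genes. DESeq2 called 0 members, with 2 at an unadjusted p under 0.05, and 0% of all genes. Without population 1 edgeR still called 0 members, with 3 at an unadjusted p under 0.05. With the block as well it called 7 as lower (0.608% of all genes), among them Acp32CD, Acp63F, Sfp77F and Sfp33A1.

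At 48 h the estimates were higher in polygamous males for nearly every member, but no member passed the test. The median log2 difference was 0.47, with 26 of 27 members higher in polygamous males, against −0.00 over all genes. Without monogamous population 1 the median was 0.20 with 27 of 27 higher. The quasi-likelihood test of edgeR called 0 members, with 3 at an unadjusted p under 0.05, and 0% of all genes, and DESeq2 called 0 members and 1.09% of all genes. In 7 members every polygamous library at 48 h lay above every monogamous library, a separation that 11.9% of all genes showed, and 10.4% in the other direction. They were Acp32CD, Sfp26Ac, Sfp33A1, Sfp33A3, Sfp36F, Sfp70A4 and Sfp84E, and the same 7 were separate without population 1, where 17.2% of all genes were separate.

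Acp32CD had the highest difference at 48 h, with 530 to 626 CPM in polygamous males against 96.3 to 482 CPM in monogamous males. The groups did not overlap. The log2 difference was 0.85 ± 0.42, and 0.42 ± 0.12 without population 1 (edgeR adjusted p 0.264). For Sfp36F, whose values in each library are given above, the difference was 0.61 ± 0.19 (edgeR adjusted p 0.257) and 0.47 ± 0.20 without population 1 (edgeR adjusted p 0.375). The single member with a lower estimate in polygamous males was Acp54A1, at −0.06 ± 0.33, and its estimate was 0.13 with size factors from testis genes.

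At 96 h the differences between regimes lay around 0. The members' median difference was −0.00 with 16 of 27 below 0, or 7 of 27 with size factors from testis genes, and the range was −0.15 for Sfp77F to 0.39 ± 0.23 for Acp98AB, which had 304 to 445 CPM in polygamous males against 240 to 360 CPM in monogamous males. The 2 groups overlapped in all 27 members, where 5.63% of all genes were separate towards higher and 5.15% towards lower values in polygamous males. Without monogamous population 1, 20 of 27 members were below 0, and Sfp77F was separate towards lower values in polygamous males, as 11.1% of all genes were. The test of edgeR called 0 members, with 0 at an unadjusted p under 0.05, and 0% of all genes, and DESeq2 called 0 members and 0.15% of all genes.

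**Figure D5:**
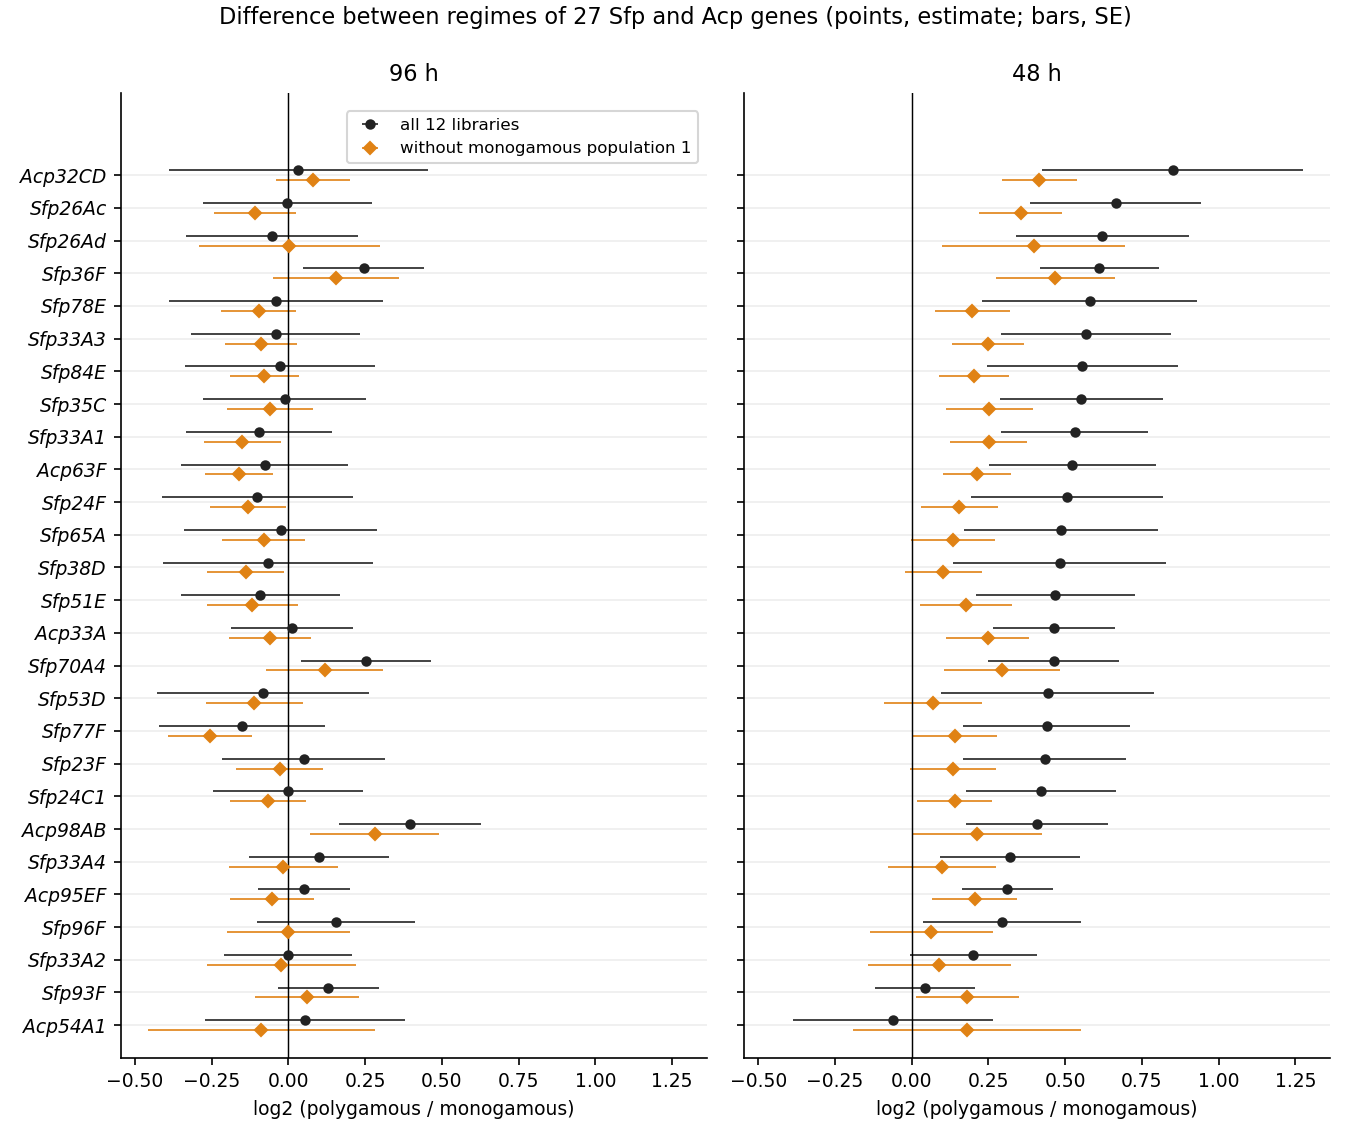
Log2 difference between polygamous and monogamous males of 27 Sfp and Acp genes at 96 h (left) and 48 h (right), from edgeR; points are estimates and bars are SE, with all 12 libraries (circles) and without monogamous population 1 (diamonds). At 48 h the points lie right of 0 in 26 members with all libraries and in 27 without that population, with medians of 0.47 and 0.20.

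When the libraries of each population were summed, 3 sums against 3, all 27 members were higher in polygamous males, with a median of 0.23, and 24 were with a median of 0.05 without monogamous population 1. Sfp36F led at 0.49 ± 0.19 (edgeR adjusted p 0.520). The test called 0 members, with 2 at an unadjusted p under 0.05, and 0% of 13512 genes, and DESeq2 called 0 members and 0.588% of all genes. Among the monogamous populations, population 3 was high in most members. Each library was set against the members' mean log2 CPM over the other libraries of the study. The 48 h library of population 3 had 0 and its 96 h library 5 of 27 members below that mean. Their medians lay 0.38 and 0.26 above it on the log2 scale. The polygamous libraries at 48 h lay 0.30 to 0.45 above the mean of their other libraries in the median member.

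Among 49 seminal fluid genes outside the set the median age change averaged over regimes was also below 0. With all libraries it was −0.45 in polygamous and 0.05 in monogamous males, or −0.14 in monogamous males without population 1. With age, averaged over regimes, 0 rose and 4 fell (Obp56e, Sfp79B, Spn77Bb and msopa), with a median of −0.17, and 18 fell without monogamous population 1. Their summed level was 35663 to 39169 CPM in polygamous males at 96 h, against 60157 to 61542 CPM at 48 h, and 34551 to 43780 CPM in monogamous males at 96 h, against 22966 to 60229 CPM at 48 h. Of 54 tested testis markers 0 were called with age and the median was −0.09. Among 16 tested haemocyte and fat body markers SPARC and vkg fell, with a median of −0.47, and 0 of 10 secondary cell, 0 of 7 duct and bulb and 0 of 15 muscle markers were called. Without monogamous population 1 the calls were 3 secondary cell markers lower (BG642163, BG642167 and BG642312) and 4 muscle markers lower (Mhc, Prm, TpnC47D and Zasp52). Of the duct and bulb markers 1 was then higher and 1 lower (EbpIII and Est-6), of the testis markers 4 higher and 1 lower, and of the haemocyte and fat body markers 1 higher and 2 lower. With size factors from testis genes, 2 testis markers (fzo and twe) and EbpIII were called higher. With the population as a block and all libraries, 7 haemocyte and fat body markers were called lower, EbpIII and the testis marker tbrd-1 higher, and Est-6 and Obp51a lower. The part of these markers in the members' changes was not tested.

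The tandem genes Sfp24Bd and Sfp24Bc were near 0 in most libraries and clear in a pair of them. Sfp24Bd had 46 counts in the 96 h library of monogamous population 1 and 74 in that of population 3, and 0 to 2 counts in the other 10 libraries. Sfp24Bc had 22 counts in each of the same libraries and 0 to 6 counts in the others, the 6 in polygamous population 1 at 48 h. The third monogamous library at 96 h held 0 counts of both genes, so the group overlapped with every other group. Both genes failed the filter and were not tested. Their namesakes outside the set, looked up after these values were seen, stood high in the same 2 libraries, Sfp24Ba with 621 and 558 counts, against 0 to 12 in the other 10, and Sfp24Bb with 1271 and 1560 counts, against 2 to 48. In the 2 libraries that held them, Ebp, an ejaculatory bulb protein gene, stood at 506 and 487 CPM, against 0.575 to 8.53 CPM in the other 10. EbpII, looked up after these values were seen, stood at 141 and 136 CPM, against 0.102 to 5.80 CPM. EbpIII was also highest in these 2 libraries, at 55.6 and 59.1 CPM, against 32.4 to 45.2 CPM in the other 10. The bulb is not named in the tissue label. Over the whole list for duct and bulb, 7 of 10 genes matched and 0 were at 0 in any library. The list summed to 3616 and 5212 CPM in the 2 libraries, against 2878 to 6624 CPM in the other 10. Est-6 alone gave 1470 and 2126 CPM of the sums in the 2 libraries. The part of bulb tissue in the counts of Sfp24Bd and Sfp24Bc was not tested.

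The estimates of change varied within the set, with smaller SDs than over all tested genes, which were not matched for level. All 27 tested members had a mean of 10.2 CPM or more. The SDs below include the error of the estimates. The members' SE ran from 0.15 to 0.42 for the age change in polygamous males. It ran from 0.15 to 0.42 as well for the difference between regimes at 96 h. The SD of the log2 age change over the 27 members was 0.28 in polygamous and 0.39 in monogamous males, against 0.38 and 0.48 over all tested genes. For the difference between regimes it was 0.12 at 96 h and 0.18 at 48 h, against 0.45 and 0.44 over all genes. Among polygamous males the estimates ran from −1.23 for Sfp36F, −0.90 for Sfp93F and −0.86 for Acp63F to −0.15 for Sfp53D and −0.06 for Acp32CD. None of these passed the edgeR test with all 12 libraries and no block, while Sfp36F and Sfp93F passed it with the population as a block. Acp98AB was the only member with an estimate above 0 there, at 0.17 ± 0.23. It had 445, 385 and 304 CPM in polygamous populations 1 to 3 at 96 h, against 296, 401 and 312 CPM at 48 h, and its ages overlapped.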

How the data were processed

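RNA of 12 pools of male reproductive tracts was sequenced with a stranded total RNA kit, all libraries multiplexed on 2 lanes. Per the submitters' processing notes, the tools were Trimmomatic 0.33, TopHat2 2.1.0 and HTSeq 0.6.1 with build BDGP6; the annotation release, counting mode and strand setting are not given in the sources used here. What the authors deposited for each library is a list of raw counts for 17559 gene identifiers, followed by 5 lines that name no gene. These 5 lines took 15.1% to 17.2% of a library and were removed before any total was formed. Symbols, lengths and positions came from the Ensembl BDGP6.54 annotation, which named 17253 identifiers and left 306 unnamed. No pair of libraries held identical values.

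Counts were tested with edgeR 4.0.16 in R 4.3.3 (TMM, filterByExpr with a count minimum of 10, robust quasi-likelihood F test), 1 model with the 4 groups of 3 libraries. Benjamini-Hochberg adjustment ran over all 13156 genes tested, with calls at an adjusted p under 0.05. The standard error is that implied by the F statistic. Regimes over both ages were compared on 6 sums, 1 per population. The procedure was also run on simulated data, for the averaged age change only. The simulated libraries were independent, so that run did not cover the population block or a deviating library. Values in each library are printed for members called in any comparison with all libraries or without monogamous population 1, for the 3 most abundant members per length, and for members with start sites within 20000 bases of each other; other values are printed as ranges. Acp32CD and Acp98AB were added after their values were seen. Members and lists were chosen with earlier results of these data known.

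The labels tie both ages to 1 population. Deviations from the group means of the 2 libraries of a population correlated across genes at 0.390 to 0.570 in all 6 populations, so the population was used as a block in an alternative fit. Other alternatives were DESeq2 1.42.0, other size factors, no filter, and leaving out libraries or monogamous population 1. Depth bears on counting error only, and the spread within a group comes from 3 libraries.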

Additional observations from a re-analysis of the deposited data

Results flagged for a closer look

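Acp32CD, Sfp51E and Sfp53D stood out because all 3 polygamous populations were lower and all 3 monogamous populations higher at 96 h. The log2 difference between the regimes in the age change was −0.819 for Acp32CD, −0.56 for Sfp51E and −0.527 for Sfp53D, and the edgeR test of the difference gave an adjusted p of 0.919 for each. Acp32CD changed by −0.10, −0.04 and −0.04 in polygamous populations 1 to 3, and by 2.60, 0.25 and 0.29 in monogamous populations 1 to 3. Sfp51E changed by −0.19, −0.28 and −0.34 in the polygamous populations, and by 1.10, 0.06 and 0.01 in the monogamous ones. Sfp53D changed by −0.05, −0.15 and −0.23 in the polygamous populations, and by 1.63, 0.06 and 0.01 in the monogamous ones. In each gene the change in monogamous population 1 was the largest of the 6. Without it the difference was −0.34 for Acp32CD, −0.29 for Sfp51E and −0.18 for Sfp53D. With the population as a block as well, Acp32CD (edgeR adjusted p 0.0253) and Sfp51E (0.0370) were called and Sfp53D was not (0.328). Groups of 3 libraries are too small for the check on single far-off samples.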

How the results depend on the processing

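Averaged over regimes, the 3 members called with age became 6 with DESeq2, 7 without monogamous population 1, 22 with the population block and without that population, and 2 to 8 when each library was left out. In monogamous males the 1 member called became 0 with size factors from testis genes and without monogamous population 1, 2 with DESeq2, 7 with the block and without that population, and 0 to 1 when each library was left out. In polygamous males the 0 members called became 1 with the size factors of DESeq2 in edgeR, 3 with DESeq2, 6 without monogamous population 1, 22 with the block and without that population, and 0 to 6 when each library was left out. For the difference between regimes in the age change, 0 became 7 with the block and without that population. Comparisons of the regimes called 0 members in every alternative run. The legacy quasi-likelihood method, chosen after seeing the data, left the counts at 3, 1 and 0. Over all genes, calls with age ran from 81 to 917 when each library was left out. Without the 10 most abundant genes in the total, the set took 0.832% of counts in polygamous males at 96 h and 1.08% at 48 h. Of 24 single-gene results followed through the alternatives, 0 changed sign. Some other estimates did change sign. In the averaged age change 21 of 27 members were below 0 with all libraries, and 25 without monogamous population 1. Sfp36F and Sfp93F were called in the averaged age change in 20 of 20 alternatives. With size factors from testis genes, the all-gene median shifted by 0.11 in the averaged age change and by 0.15 between regimes at 48 h, and the members' medians were then −0.05 and 0.58. The cause of these differences was not tested.

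With the population as a replicate block, 4 members were called with age averaged over regimes, 3 in monogamous males and 3 in polygamous males. Population numbers do not pair the regimes, since their deviations correlated at −0.148 to 0.199; a block on the number called 0 members between regimes at either age.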

Other observations

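Coding length went with the members' changes in several comparisons, as a description over 27 members that share all libraries. The Spearman correlation of coding length with the log2 age change was 0.23 in polygamous males and 0.74 in monogamous males, or 0.37 in monogamous males without population 1. Over 11416 coding genes these correlations were 0.05, 0.21 and −0.07. With the difference between regimes it was −0.73 at 96 h and 0.61 at 48 h, and −0.52 and 0.03 without that population. Over the coding genes the correlations with the regime difference were 0.09 at 96 h and 0.20 at 48 h, and 0.15 and 0.00035 without that population. Coding length had a correlation of 0.08 with the members' mean CPM.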
